A study of Mus musculus with 19 samples.

Results

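The 48 genes described here encode proteins that copy nuclear DNA and make its building blocks, from the loading of the replicative helicase to the synthesis of deoxynucleotides. They were taken from a written list of S-phase genes by name, with earlier results of these data known, and all 48 were found among the 24689 gene symbols of the deposited table. All 48 were among the 22745 genes tested. They were measured by poly-A RNA sequencing of tongue epithelium dissected from 19 mice, 15 days after the transgenes were induced, at an age of 8 to 16 weeks. Every group received tamoxifen injected into the tongue and chow with doxycycline. In the system used, Krt14-CreERT removes a stop cassette from LSL-rtTA, and rtTA with doxycycline then switches on any transgene behind a tetON element, with an H2B-GFP reporter among them according to the study's methods. E mice (n = 5) carry tetON_E6-E7, the pair of human papillomavirus 16 oncogenes. Y mice (n = 3) carry tetON_YAP1S127A, a constitutively active YAP1, and EY mice (n = 6) carry both transgenes. The N mice (n = 5) are the controls, of which 3 carry Krt14-CreERT and LSL-rtTA with neither tetON_E6-E7 nor tetON_YAP1S127A. N mouse 4 has LSL-rtTA without Cre, and N mouse 5 has Krt14-CreERT and both effector transgenes without rtTA. The Krt14 promoter directs recombination to basal cells, while the whole dissected epithelium was sequenced, so cells with and without active transgenes are mixed in each value. Mice are named here by group and number, as in EY3.

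Before S phase, the origin recognition complex with Cdc6 and Cdt1 loads the Mcm2-7 helicase onto DNA, and Cdc45 and the GINS complex then join it to form the active helicase. Polymerase alpha-primase starts each strand, the clamp loader places the Pcna ring, and polymerases delta and epsilon extend the new DNA while Fen1 and Lig1 mature Okazaki fragments. Ribonucleotide reductase and thymidylate synthase supply deoxynucleotides, and many of these genes are textbook targets of E2F transcription factors, which the retinoblastoma protein restrains and papillomavirus E7 releases. In stratified epithelia such as that of the tongue, cells divide mainly in the basal layers and stop replicating as they differentiate.

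The authors deposited TPM (transcripts per 1000000), a level per transcript length within each mouse. Between 8274453 and 11012299 whole read pairs per mouse were recovered from the steps between TPM values. The labelled tissue was checked against its markers. None of the 7 basal epithelial and 8 differentiated tongue epithelial markers was at 0 in any mouse, and Krt14 and Krt13 were the most abundant gene of their lists in all 19 mice. Over the 22745 genes tested, the median log2 fold change from the controls was 0.33 for EY, 0.13 for Y and 0.07 for E mice, and 0.01, -0.03 and -0.02 after median-of-ratios scaling of the mice. Counts and list medians after this scaling are therefore given beside many of those on the deposited scale.

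In the N epithelia the 48 genes spanned a wide range of levels. Pcna had the highest mean in each group, at 135 TPM for the N, 336 TPM for the E, 243 TPM for the Y and 512 TPM for the EY mice. The lowest mean was that of Prim2 in N (0.290 TPM) and Y (0.681 TPM), and that of Pola1 in E (0.724 TPM) and EY (1.44 TPM). The summed level of the 48 genes was 559, 575, 638, 537 and 575 TPM in the 5 N mice, 840.1, 1225, 1336, 1521 and 1326 TPM in the E mice, 878, 989 and 1093 TPM in the Y mice, and 1797 to 2366 TPM with a median of 1972 TPM in the 6 EY mice. No N mouse overlapped any other group, no EY mouse did either, and the Y sums lay within the range of E, where E1 was the lowest. Pcna alone made up between 23.5% and 26.9% of the sum in each group. These are bulk levels, in which more replicating cells and more RNA per replicating cell cannot be told apart.

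**Figure D1:**
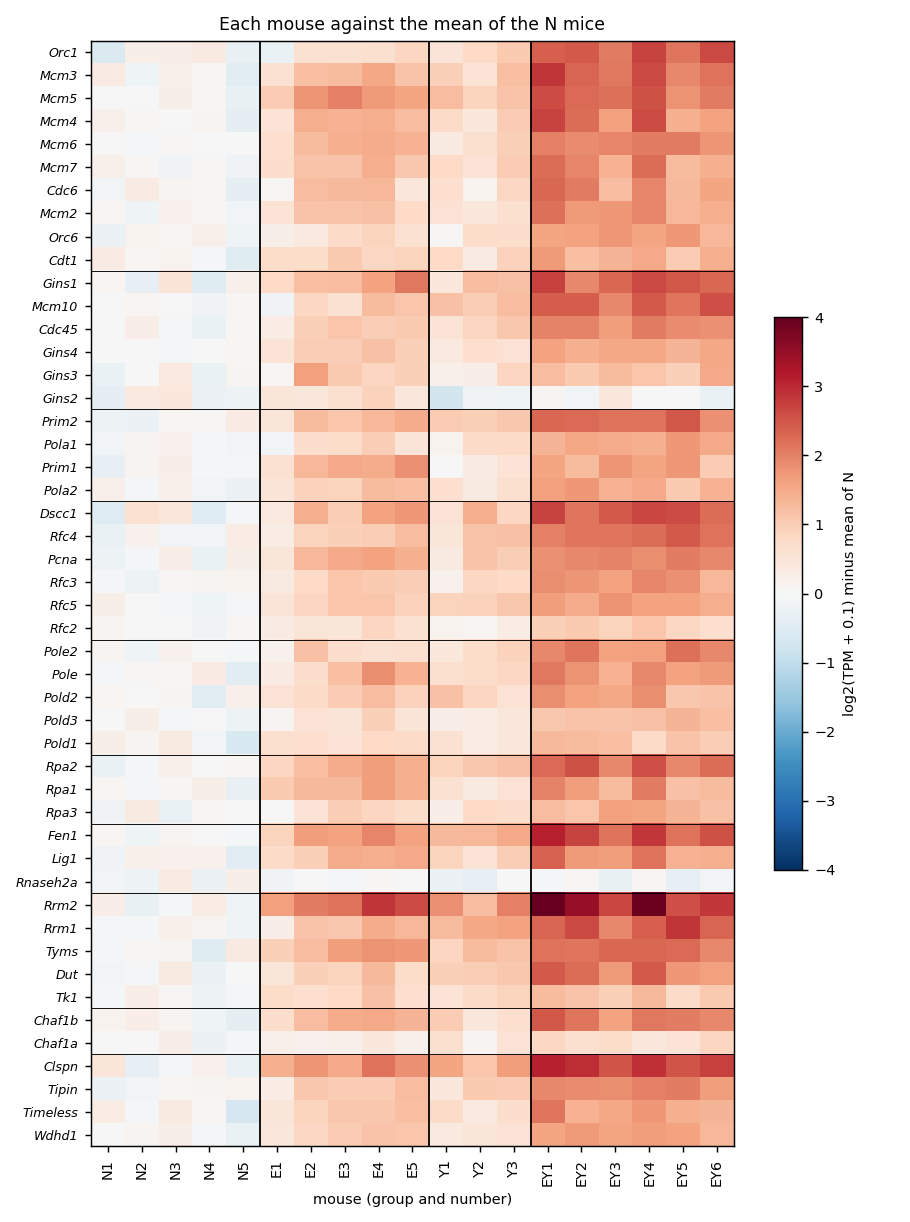
Level of each of the 48 genes in each of the 19 mice as log2(TPM + 0.1) relative to the average of the 5 N mice, with genes in the order of their roles and mice in their groups. Most genes deepen from N over Y and E to EY, E1 is the palest E mouse, and Gins2 and Rnaseh2a stay pale in EY.

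EY was compared with N to see what both transgenes together do to the replication genes. Of the 48 genes, 44 rose in EY epithelia, where a call means a Benjamini-Hochberg adjusted p below 0.01 over all genes tested in limma and an absolute log2 fold change above 1. By the same rule 12.6% of all genes tested were higher in EY. The median log2 fold change of the 48 genes was 1.75, and 1.38 after scaling, when 38 were called and 6.78% of all genes tested were higher. The 6 genes that lost their call with scaling were Tk1, Pold1, Pold3, Gins3, Rpa3 and Cdt1. In 46 of the 48 genes every EY mouse lay above every N mouse, a pattern found in 20.9% of all genes tested. Leaving out any of the 19 mice left 43 or 44 genes called. No gene of the 48 was called lower than in N by limma or by voom in EY, Y or E. At an unadjusted p under 0.05 by limma there were 46, 42 and 45 of the 48, all higher. Of all genes tested 34.9%, 20.9% and 11.2% were higher at that limit. After scaling 48, 33 and 45 were under it, and no longer all higher, with Gins2 and Rnaseh2a lower in EY. In Y these 2 genes were below 0 already on the deposited scale, at -0.34 and -0.18. The directions of the 33 genes in Y after scaling are not given. Of all 4157 genes called in EY, 68.8% were higher, and 43.9% of 3513 were higher after scaling, so the share of higher calls among all genes depends on the scale.

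All 10 origin licensing genes rose in EY, with a median log2 fold change of 1.85. They ran from Cdt1, which delivers the helicase to origins, at 1.37, to Orc1, the largest subunit of the origin recognition complex, at 2.40. Mcm7, a subunit of the helicase ring, stood at 41.1, 37.0, 32.9, 37.1 and 32.6 TPM in N mice, 59.3, 79.7, 79.9, 98.4 and 76.5 TPM in E mice, 63.0, 53.4 and 72.8 TPM in Y mice, and 86.8 to 171 TPM with a median of 117 TPM in EY. Every mouse with a transgene switched on lay above every N mouse, EY4, EY1 and EY2 were the highest, and the other 3 EY mice fell within the range of E. Its log2 fold change in EY was 1.75 (SE 0.18, adjusted p = 5.96e-07), a 3.35-fold difference. The other Mcm subunits gave 1.73 for Mcm2, 2.34 for Mcm3, 2.04 for Mcm4, 2.25 for Mcm5 and 1.96 for Mcm6.

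Helicase activation genes rose in 5 of 6 cases, with a median of 1.71. Gins1 had a log2 fold change of 2.40 (SE 0.25), Mcm10, which helps to activate the loaded helicase, 2.32, and Cdc45 1.91. Gins3, a subunit of the same complex as Gins1, gave 1.19, and Gins4 was called with a value between those of Gins3 and Cdc45. Gins2, the remaining GINS subunit, was not called. Its levels were 13.2, 23.0, 23.4, 14.7 and 14.9 TPM in N mice, 24.0, 24.0, 27.0, 33.0 and 23.6 TPM in E mice, 10.3, 15.8 and 15.5 TPM in Y mice, and 14.4 to 23.0 TPM with a median of 17.2 TPM in EY. Every E mouse lay above every other mouse, while N, Y and EY overlapped. The log2 fold change of Gins2 was 0.02 in EY (SE 0.17, adjusted p = 0.932), and -0.35 after scaling.

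The 4 polymerase alpha-primase genes rose, from 1.45 for Pola2 to 2.20 for Prim2. Prim1, the catalytic primase subunit, had 11.4, 15.5, 17.3, 13.8 and 13.9 TPM in N mice, 21.6, 35.9, 41.1, 40.2 and 50.9 TPM in E mice, 14.2, 17.9 and 21.04 TPM in Y mice, and 28.9 to 48.8 TPM with a median of 42.5 TPM in EY. The E and EY mice overlapped each other and lay above all N and Y mice, which also overlapped. Its log2 fold change in EY was 1.49 (SE 0.19, adjusted p = 7.24e-06).

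Of the 6 sliding clamp and clamp loader genes 5 rose, with a median of 1.83. Pcna, the ring that holds the polymerases on DNA, had 116, 130.4, 161, 112 and 157 TPM in N mice, 187, 337, 385, 412 and 359.7 TPM in E mice, 171, 294 and 263 TPM in Y mice, and 476 to 559 TPM with a median of 506 TPM in EY. Every EY mouse lay above every other mouse and every N mouse below, and E1 and Y1 were low in their groups. Pcna gave 1.93 in EY (SE 0.18, adjusted p = 2.03e-07), a 3.81-fold difference. Dscc1, part of an alternative clamp loader, had the largest value of the 6 at 2.47, and Rfc4 gave 2.20, Rfc3 1.73 and Rfc5 1.61. Rfc2, a subunit shared by the loaders, had 10.4, 9.86, 9.55, 8.76 and 10.04 TPM in N mice, 12.1, 13.6, 13.7, 17.8 and 14.9 TPM in E mice, 10.6, 10.2 and 12.01 TPM in Y mice, and 15.4 to 21.1 TPM with a median of 18.5 TPM in EY. N and Y overlapped, E lay above both, and EY overlapped only the highest E mouse, E4. Its log2 fold change of 0.91 (SE 0.10, adjusted p = 1.12e-06) passed the p limit in EY but not the limit on size.

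The 5 replicative polymerase genes rose from 1.11 for Pold1 to 1.90 for Pole2. Pold2, an accessory subunit of polymerase delta, had 13.1, 12.6, 13.5, 9.34 and 14.4 TPM in N mice, 18.5, 21.3, 25.4, 29.6 and 23.6 TPM in E mice, 28.1, 22.8 and 18.7 TPM in Y mice, and 26.4 to 45.1 TPM with a median of 37.5 TPM in EY. All N mice lay below the rest, E and Y overlapped each other, and EY5 and EY6 fell within the range of E. Its log2 fold change was 1.51 (SE 0.17, adjusted p = 1.38e-06).

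The 3 genes of replication protein A, which coats single-stranded DNA, rose, with 2.24 for Rpa2, 1.58 for Rpa1 and 1.35 for Rpa3. Rpa3 had 14.3, 20.3, 13.0, 16.4 and 15.4 TPM in N mice, 15.9, 23.2, 31.0, 28.7 and 26.3 TPM in E mice, 18.9, 27.5 and 25.8 TPM in Y mice, and 34.2 to 48.8 TPM with a median of 38.7 TPM in EY. EY lay above all other mice, while E1 and Y1 overlapped N. The value for Rpa3 (SE 0.16, adjusted p = 3.96e-06) was 0.97 after scaling and 0.95 with quantile normalization, and it was then not called.

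Among the Okazaki fragment genes, Fen1, the flap endonuclease, and Lig1, the ligase that seals the fragments, rose, by 2.59 and 1.79. Fen1 had 17.5, 14.7, 17.9, 16.7 and 16.1 TPM in N mice, 30.4, 52.6, 50.7, 64.5 and 50.5 TPM in E mice, 40.7, 41.7 and 47.8 TPM in Y mice, and 74.9 to 144 TPM with a median of 103 TPM in EY. N lay lowest and EY highest without overlap, and Y fell within E (SE 0.18, adjusted p = 6.54e-09 for EY against N). Rnaseh2a, the catalytic subunit of the enzyme that removes ribonucleotides from DNA, had 44.7, 41.8, 60.0, 40.5 and 56.4 TPM in N mice, 43.9, 48.5, 46.2, 49.1 and 48.5 TPM in E mice, 41.0, 38.5 and 48.3 TPM in Y mice, and 38.2 to 49.9 TPM with a median of 44.9 TPM in EY. All 4 groups overlapped, and N3 and N5 were the highest mice. Its log2 fold change in EY was -0.12 (SE 0.11, adjusted p = 0.406), the lowest of the 48 genes, and -0.50 after scaling.

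The 5 nucleotide synthesis genes rose with a median of 2.19. Rrm2, the regulated subunit of ribonucleotide reductase, had 25.1, 16.8, 19.5, 25.5 and 18.6 TPM in N mice, 64.9, 85.5, 93.6, 153 and 128 TPM in E mice, 73.4, 49.2 and 84.7 TPM in Y mice, and 125 to 343 TPM with a median of 191 TPM in EY. N lay below all others, EY lay above Y and overlapped E4 and E5, and EY1, EY4 and EY2 were the highest. The log2 fold change in EY, 3.26 (SE 0.28, adjusted p = 8.34e-08) or 9.56-fold, was the largest of the 48 genes. Rrm1, the large subunit, gave 2.41, Tyms, which makes thymidylate, 2.19, and Dut, which removes dUTP, 2.04. Tk1, the thymidine salvage kinase, had the smallest value of the 44 called genes at 1.07, and 0.69 after scaling, when it was not called.

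Of the chromatin assembly factor 1 genes, Chaf1b rose by 2.05 and Chaf1a was not called. Chaf1a had 13.97, 13.7, 16.7, 11.8 and 13.0 TPM in N mice, 15.9, 15.4, 15.7, 18.4 and 15.8 TPM in E mice, 21.6, 14.9 and 20.6 TPM in Y mice, and 18.8 to 24.9 TPM with a median of 22.2 TPM in EY. EY lay above all N and E mice and overlapped Y, and E and Y each overlapped N. Its log2 fold change in EY was 0.68 (SE 0.11, adjusted p = 8.17e-05). The 4 fork protection genes rose, from 1.57 for Wdhd1 and 1.60 for Timeless to 2.78 for Clspn, a mediator of the replication checkpoint. Tipin, the partner of Timeless, had 4.37, 4.77, 5.47, 5.59 and 5.72 TPM in N mice, 6.36, 10.9, 10.4, 10.5 and 12.3 TPM in E mice, 6.96, 10.7 and 10.5 TPM in Y mice, and 16.8 to 21.4 TPM with a median of 19.5 TPM in EY. N lay lowest and EY highest without overlap, E and Y overlapped, and E1 and Y1 were low, and the log2 fold change of Tipin in EY was 1.90 (SE 0.15, adjusted p = 3.43e-08).

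**Figure D2:**
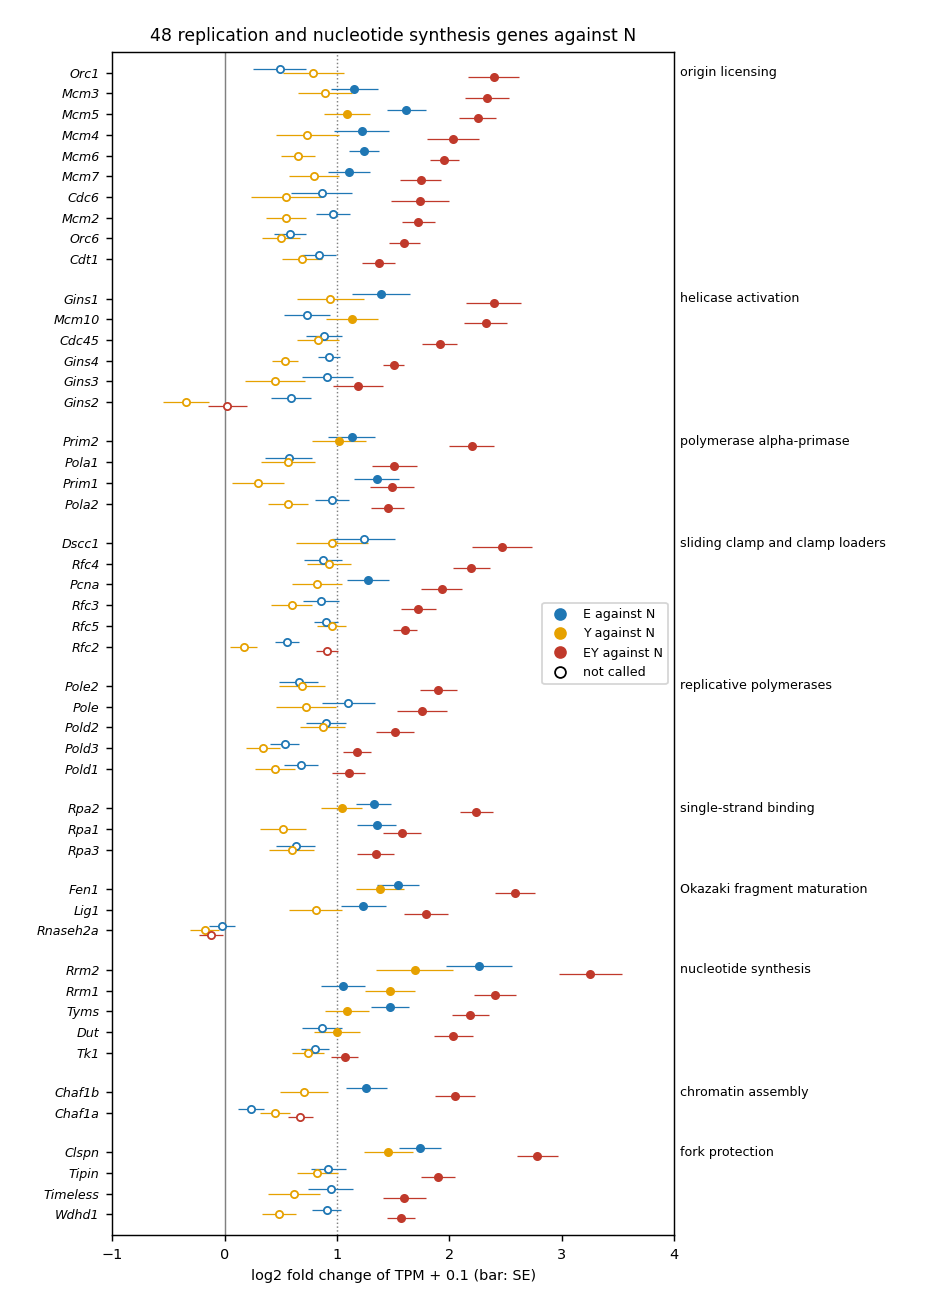
Log2 fold change against N of each of the 48 genes in E, Y and EY epithelia, with the standard error of limma as bars, genes by role, and open symbols where the change was not called. EY lies to the right of E and Y in 46 genes, with Rrm2 farthest at 3.26, and all 4 open EY symbols lie below 1.

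The EY mice were not alike in these genes. EY1, EY2 and EY4 were the 3 highest EY mice in 20 of the 48 genes, among them Mcm7, Fen1, Lig1, Rrm2 and Clspn. The highest EY mouse had 2.74 times the level of the lowest for Rrm2, 2.39 times for Mcm4, and 1.17 times for Pcna. In the 5 E mice the order was more regular, as E1 was the lowest in 44 of the 48 genes and E4 the highest in 30. Among the Y mice, Y3 was the highest in 29 genes and the lowest in 1. These orders are on the deposited scale. Median-of-ratios scaling divides each mouse by a factor. Among the E mice this factor was lowest for E1 (0.9002) and highest for E4 (1.016). Among the Y mice it was highest for Y3 (1.0796), and among the EY mice it was lowest for EY4 (1.0885). The orders after scaling and over all genes are not given, and the part of the scale in these orders was not tested.

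Y was compared with N to see what active YAP1 does without the viral genes. In Y epithelia 10 of the 48 genes rose, against 3.47% of all genes tested that were higher. They were Mcm5, Mcm10, Prim2, Rpa2, Fen1, Rrm1, Rrm2, Tyms, Dut and Clspn, with 4 nucleotide synthesis genes among them. The median log2 fold change was 0.73, and 0.54 after scaling, when 4 genes, Fen1, Rrm1, Rrm2 and Clspn, were called and 2.30% of all genes tested were higher. Rrm2 gave 1.69 (SE 0.34, adjusted p = 0.00259), Rrm1 1.47 (SE 0.23, adjusted p = 0.000281), Clspn 1.45 and Fen1 1.38 (SE 0.22, adjusted p = 0.000326). In 35 of the 48 genes every Y mouse lay above every N mouse, as in 15.5% of all genes tested. With only 3 Y mice the count rested on single animals, with 4 genes called without Y3, and Rrm2, at 1.63 without Y1 and 1.53 without Y3, was then not called. It was also 5 with the 3 N mice that carry both Cre and rtTA, where Rrm2 gave 1.73 and was not called. Pcna, at 0.82 in Y, and Tipin, at 0.83, were called at 1.06 and 1.03 without Y1. Of all genes called in Y, 75.8% were higher, and 57.2% after scaling.

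E was compared with N to see what E6-E7 does without active YAP1. In E epithelia 18 of the 48 genes rose, against 1.16% of all genes tested that were higher. These 18 were Mcm3, Mcm4, Mcm5, Mcm6, Mcm7, Gins1, Prim1, Prim2, Pcna, Rpa1, Rpa2, Fen1, Lig1, Rrm1, Rrm2, Tyms, Chaf1b and Clspn. No polymerase delta or epsilon gene was called. The median log2 fold change was 0.93, and 0.82 after scaling, when 15 genes were called and 0.985% of all genes tested were higher. Rrm2 gave 2.27 (SE 0.30, adjusted p = 0.000135), Clspn 1.74, Mcm5 1.62, Fen1 1.54 (SE 0.19, adjusted p = 6.16e-05), Prim1 1.35 (SE 0.20, adjusted p = 0.000498) and Pcna 1.28 (SE 0.19, adjusted p = 0.000493). In 35 of the 48 genes every E mouse lay above every N mouse, as in 3.93% of all genes tested. Without E1, the lowest E mouse in most of these genes, the count was 30, and Tipin, at 0.92, was called at 1.08. Mcm7, at 1.11, fell to 1.00 after scaling and 0.97 with quantile normalization and was then not called, nor was it at 1.08 with the 3 N mice that carry both Cre and rtTA. Prim1 and Pcna were not called when only the E and N mice were fitted, with 11 genes called.

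The comparisons of EY, Y and E with N share the N mice. By their calls in EY, Y and E, 8 of the 48 genes rose in all 3 groups, 10 in EY and E, 2 in EY and Y, 24 in EY alone, and 4 in none. Of all genes tested these patterns held 0.739%, 0.356%, 2.59%, 8.88% and 87.2%. A call in 1 group and not in another is no test of the difference between them. Among the 24, Tipin gave 0.92 in E and 0.83 in Y, and Pold2 0.90 and 0.87, all under the limit on size. The group means followed the order N, Y, E, EY in 38 genes and N, E, Y, EY in 8. The exceptions were Gins2, where E was highest and Y lowest, and Rnaseh2a, where N was highest and Y lowest.

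**Figure D3:**
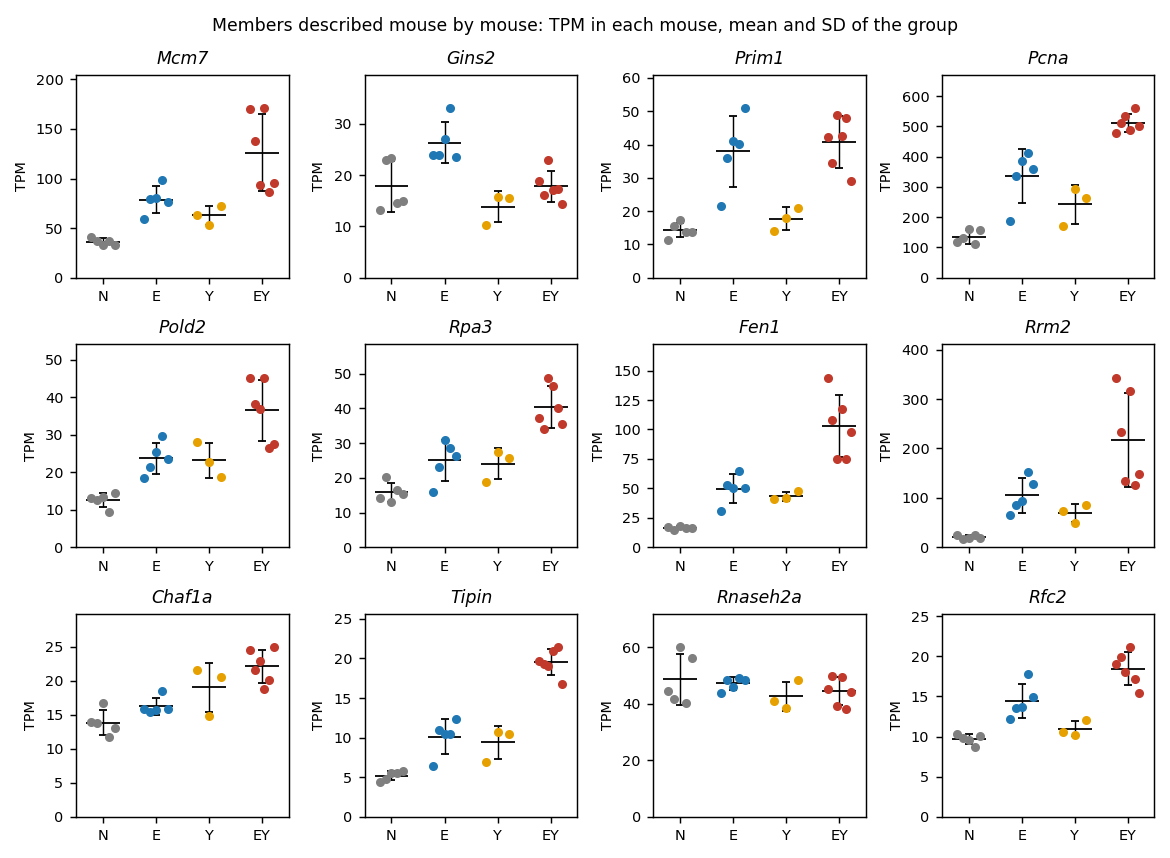
TPM of 12 of the genes in every mouse (points), with the group mean and SD as line and bar, for N (5 mice), E (5), Y (3) and EY (6). The genes are the most abundant of each of the 10 roles, the largest and the smallest change in EY, and those not called in EY, and Pcna, Rpa3, Fen1 and Tipin show every EY mouse above all others.

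EY was compared with Y and with E to see what each transgene adds to the other. Against Y, 27 of the 48 genes were higher in EY, against 1.07% of all genes tested. The median log2 difference was 1.08, and 0.91 after scaling, when 12 genes were called and 0.541% of all genes tested were higher. Orc1 had the largest value at 1.61 (SE 0.26, adjusted p = 0.00135), ahead of Rrm2 at 1.57 and Dscc1 at 1.52. In 43 of the 48 genes every EY mouse lay above every Y mouse, as in 11.1% of all genes tested. The count again rested on the 3 Y mice, with 9 genes called without Y1 and 16 without Y2. Of all genes called between EY and Y, 53.5% were higher in EY, and 30.3% after scaling.

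Against E, 14 of the 48 genes were higher in EY, against 7.82% of all genes tested. They were Orc1, Orc6, Mcm3, Mcm10, Cdc45, Gins1, Prim2, Rfc4, Dscc1, Pole2, Fen1, Rrm1, Dut and Clspn. Orc1 again had the largest value at 1.91 (SE 0.23, adjusted p = 4.66e-06), before Mcm10 at 1.59 (SE 0.19, adjusted p = 6.06e-06). In 29 genes every EY mouse lay above every E mouse, as in 17.6% of all genes tested. The median of the 48 genes was 0.72, and 0.45 after scaling, when 4 were called and 4.40% of all genes tested were higher. Without E1, 8 of the 48 were called. Of all genes called between EY and E, 61.1% were higher in EY, and 38.9% after scaling.

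Y and E were compared directly to see how the 48 genes differ between the transgenes. By limma no gene of the 48 was called higher in Y than in E and 1, Prim1, was called lower. Of all genes tested 1.67% were called higher and 0.805% lower. The result for Prim1 was -1.06 (SE 0.23, adjusted p = 0.00768), with 3 of 3 Y mice below all E mice. No gene of the 48 was called lower in Y with the 3 N mice that carry both Cre and rtTA, with only the Y and E mice fitted, with the mouse number as a block, or without any 1 of 12 of the 19 mice. By voom on the recovered reads the counts were 0 higher and 2 lower. At an unadjusted p under 0.05 there were 11 genes, and all 11 were lower in Y. Of all genes tested 23.3% lay under that limit, 14.8% higher and 8.45% lower in Y. The 11 became 21 without E1, 17 after scaling and 20 with quantile normalization. The difference was below 0 in 40 of the 48 genes, with a median of -0.29, or -0.37 after scaling, while 46.9% of all genes tested were below 0. In 4 genes, Prim1, Gins2, Rpa1 and Rfc2, every Y mouse lay below every E mouse, as in 6.5% of all genes tested. Gins2 differed by -0.93 and Rpa1 by -0.83, neither called, and Gins2 was called at -1.02 after scaling. The highest value was that of Rrm1 at 0.41, not called. Of all genes called between Y and E, 67.5% were higher in Y, and 56.2% after scaling.

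The interaction asks whether the effect of both transgenes differs from the sum of the separate effects on the log2 scale. None of the 48 genes was called for it by limma, and 0.176% of all genes tested were. At an unadjusted p under 0.05 there were 3 of the 48 genes and 3072 of all genes, and voom called 0 of the 48. The estimate was above 0 in 26 genes and below 0 in 22, with a median of 0.05, or -0.03 after scaling. Orc1 had the highest estimate, 1.12 (SE 0.35, adjusted p = 0.156), with 0.49 in E, 0.79 in Y and 2.40 in EY. Rrm2 had the lowest, -0.70 (SE 0.44, adjusted p = 0.518).

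Other genes of the same processes were taken from a written list. Of 29 other replication factors, 18 rose in EY epithelia, 6 in Y epithelia and 5 in E epithelia, and 12, 5 and 4 after scaling. Of all genes tested 12.6%, 3.47% and 1.16% were higher in these groups, and 6.78%, 2.30% and 0.985% after scaling. The largest value in EY was that of Asf1b, a histone chaperone, with 3.34, followed by Dbf4, which activates the Cdc7 kinase, with 2.71, and Gmnn, the licensing inhibitor, with 2.68. The lowest was Chtf8 with 0.13. Of 25 other nucleotide synthesis genes tested, 17 rose in EY mice, 3 in Y mice and 1 in E mice, and 8, 1 and 1 after scaling. Ctps, which makes CTP, gave 2.04 in EY and 1.43 in Y.

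In the direct comparison of Y with E the median was -0.29 in the 48 genes, 0.03 in the other replication factors, 0.38 in the other nucleotide synthesis genes and 0.25 in 19 mitosis genes, and after scaling -0.37, -0.06, 0.29 and 0.17. Ctps, Ppat, the first enzyme of purine synthesis, and Nme1, a nucleoside diphosphate kinase, were higher in Y than in E, as 1.67% of all genes tested were, by 1.13, 1.08 and 1.17, where Ppat, at 1.00 after scaling, was then not called, and no gene of the other 2 neighbouring lists was called. All 19 mitosis genes tested rose in EY and in Y and 18 in E (12.6%, 3.47% and 1.16% of all genes tested), with medians of 2.93, 2.04 and 1.78. For 17 of these 19, Y lay above E, with Ndc80 the lowest at -0.65. Whether the lists differ from each other was not tested.

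**Figure D4:**
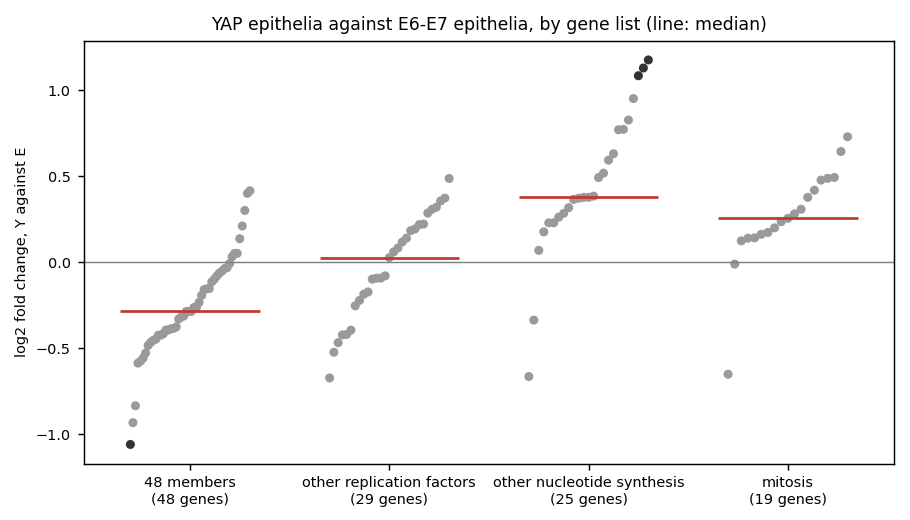
Log2 difference of Y minus E for each gene of 4 lists, the 48 replication and nucleotide synthesis genes, 29 other replication factors, 25 other nucleotide synthesis genes and 19 mitosis genes, with called genes dark and the list median as a red line. The median is -0.29 for the 48 genes and 0.38 for the other nucleotide synthesis genes, where Ctps, Ppat and Nme1 are called.

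The 11 E2F and pocket protein genes were read beside the replication genes. In EY 6 of them rose, E2f7 by 3.07, E2f6 by 1.86, E2f8 by 1.83, E2f2 by 1.80, E2f1 by 1.31 and Rbl1 by 1.18, where 12.6% of all genes tested were higher. After scaling 4 were called, without E2f1 and Rbl1, and 6.78% of all genes tested were higher. In E, E2f7, E2f8 and E2f2 rose, by 2.03, 1.27 and 1.03, with E2f2 not called after scaling at 0.92, and in Y E2f7 alone did, by 1.47. Of all genes tested 1.16% were higher in E and 3.47% in Y. Rbl2 was lowest in EY at -0.06.

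Since the replication genes moved together, their promoters were searched for 4 words of the E2F type, TTTCCCGC, TTTGGCGC, TTTCGCGC and TTTGCCGC, on both strands. RefSeq windows of 300 bases (build GRCm38.p6), from 250 bases before to 50 after the start of the gene, were found for 39 of the 48 genes, in 44 windows. At least 1 word stood in 15 of the 39 genes (38.5%) and in 704 of 27025 genes with a window (2.6%). The mitosis list had a word in 1 of 18 genes (5.56%) and the other nucleotide synthesis list in 1 of 22 (4.55%). By word, TTTCCCGC stood in 7 of the 39 genes and 1.24% of all genes, TTTCGCGC in 7 and 0.374%, TTTGGCGC in 6 and 0.585%, and TTTGCCGC in 0 and 0.507%. Of the 15 genes, 7 are licensing genes. A word is a match of letters and not a site shown to be bound.

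The windows with at least 2 words are printed, all of helicase or clamp loader genes, followed by those of the genes with the largest and the smallest change in EY, Rrm2 and Rnaseh2a, which hold none. Capitals mark the words on either strand, and TTTCGCGC and TTTGGCGC overlap in Mcm5 and in the earlier stretch of Mcm6. The windows are chr1:20820263-20820562 (minus strand) for Mcm3, chr8:75109259-75109558 (plus) for Mcm5, chr1:128359656-128359955 (minus) for Mcm6, chr5:138171834-138172133 (minus) for Mcm7, chr5:151651159-151651458 (minus) for Rfc3, chr12:24708004-24708303 (plus) for Rrm2 and chr8:84966027-84966326 (minus) for Rnaseh2a, all read 5′ to 3′ along the gene.
Mcm3: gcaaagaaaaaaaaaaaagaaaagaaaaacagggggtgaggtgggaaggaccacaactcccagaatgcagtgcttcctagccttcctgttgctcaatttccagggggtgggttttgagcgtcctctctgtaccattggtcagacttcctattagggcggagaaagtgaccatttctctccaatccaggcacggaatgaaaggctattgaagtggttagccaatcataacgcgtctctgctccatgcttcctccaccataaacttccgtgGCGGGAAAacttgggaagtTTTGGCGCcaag
Mcm5: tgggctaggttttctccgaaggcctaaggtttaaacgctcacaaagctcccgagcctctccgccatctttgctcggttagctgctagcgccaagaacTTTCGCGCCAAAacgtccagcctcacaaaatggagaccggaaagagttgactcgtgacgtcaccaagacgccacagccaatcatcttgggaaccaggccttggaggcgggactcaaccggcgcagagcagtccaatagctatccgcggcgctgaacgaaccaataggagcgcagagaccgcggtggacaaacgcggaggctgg
Mcm6: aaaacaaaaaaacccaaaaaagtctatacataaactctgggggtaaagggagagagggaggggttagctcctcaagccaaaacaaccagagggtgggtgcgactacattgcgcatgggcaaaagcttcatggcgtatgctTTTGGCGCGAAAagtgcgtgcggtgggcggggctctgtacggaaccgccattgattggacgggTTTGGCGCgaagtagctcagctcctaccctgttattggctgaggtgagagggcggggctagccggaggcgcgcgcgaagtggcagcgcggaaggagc
Mcm7: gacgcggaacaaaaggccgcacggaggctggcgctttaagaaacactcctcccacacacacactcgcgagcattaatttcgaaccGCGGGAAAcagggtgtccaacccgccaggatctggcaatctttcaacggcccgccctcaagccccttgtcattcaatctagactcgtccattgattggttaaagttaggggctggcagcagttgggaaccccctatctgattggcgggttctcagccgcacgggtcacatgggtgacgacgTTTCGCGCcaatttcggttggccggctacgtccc
Rfc3: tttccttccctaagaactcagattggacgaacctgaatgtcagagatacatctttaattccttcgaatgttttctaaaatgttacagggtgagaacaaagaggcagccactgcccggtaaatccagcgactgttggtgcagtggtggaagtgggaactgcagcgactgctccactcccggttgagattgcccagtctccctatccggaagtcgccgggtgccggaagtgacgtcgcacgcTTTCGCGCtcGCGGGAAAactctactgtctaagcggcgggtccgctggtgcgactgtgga
Rrm2: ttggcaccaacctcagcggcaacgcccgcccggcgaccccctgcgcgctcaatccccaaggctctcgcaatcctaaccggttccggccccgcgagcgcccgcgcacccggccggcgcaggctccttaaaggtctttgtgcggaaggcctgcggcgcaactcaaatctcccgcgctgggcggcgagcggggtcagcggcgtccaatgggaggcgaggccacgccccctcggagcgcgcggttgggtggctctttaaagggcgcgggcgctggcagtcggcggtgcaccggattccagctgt
Rnaseh2a: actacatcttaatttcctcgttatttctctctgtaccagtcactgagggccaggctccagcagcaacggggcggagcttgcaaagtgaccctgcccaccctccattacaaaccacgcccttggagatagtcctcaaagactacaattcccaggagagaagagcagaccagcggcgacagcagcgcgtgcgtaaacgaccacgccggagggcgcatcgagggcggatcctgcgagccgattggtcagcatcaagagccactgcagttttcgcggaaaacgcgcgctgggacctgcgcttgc

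Overlap with other genes was read after the calls were seen. In the GENCODE M21 annotation (GRCm38), 19 of the 48 genes share exon bases with another gene. The shares were highest in Fen1 with 84.2%, Gins2 with 67.3%, Chaf1a with 52.5%, Rfc2 with 15.1% and Rnaseh2a with 14.7%, and then Rfc4 with 12.7% and Mcm7 with 12.6%. Of these 19 genes 15 were called in EY and 4 were not, and of the 3 genes with more than 25% shared, 1 was called and 2 were not. The partner of Gins2 on the opposite strand, Gse1, gave -0.60 in EY, that of Chaf1a, Ubxn6, 0.22, that of Rfc2, Lat2, 0.05, and that of Rnaseh2a, Prdx2, -0.73, and none of these was called. Gm10143, antisense to Fen1, rose in EY by 2.43, and by 1.48 and 1.42 in Y and E. Tmem258, which also shares exon bases with Fen1, rose in EY by 1.05 and was not called in Y (0.85) or E (0.46). The counts of the authors were made on GRCm39, the sources do not state whether reads were assigned by strand, and the part of the overlap in these values was not tested.

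**Figure D5:**
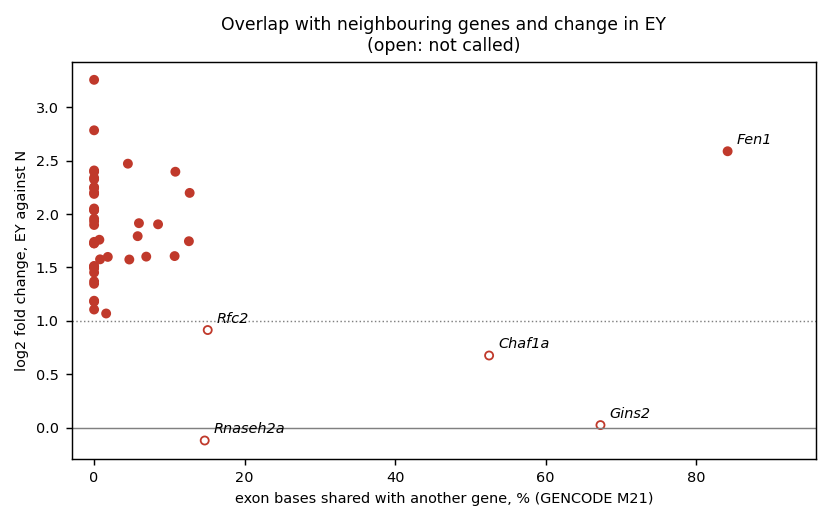
Percent of exon bases that each of the 48 genes shares with another gene (horizontal) against its log2 fold change in EY (vertical), with open points for the 4 genes not called. Gins2, Chaf1a, Rfc2 and Rnaseh2a lie below 1 with shares of 14.7% to 67.3%, and Fen1, at 84.2%, lies at 2.59.

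Transcripts of other genes matched those of 11 of the 48 genes (at least 95% identity over at least 300 bases). For 6 of them, Chaf1a, Fen1, Gins2, Rfc2, Rfc5 and Rnaseh2a, the match is a gene that shares their exon bases. Of these partners, Gse1 had 136% as many reads as Gins2, Gm10143 101% as many as Fen1, Wsb2 98.5% as many as Rfc5, Ubxn6 79.4% as many as Chaf1a and Lat2 10.4% as many as Rfc2 over all mice. Processed pseudogenes matched 5 genes. For Pcna, the most abundant of the 48 genes, the pseudogene Pcna-ps2 is 99.2% identical over 781 bases and carried 12.3% as many reads as Pcna over all mice. The pseudogenes of Cdc6, Rfc5 and Mcm7 carried 1.13%, 0.357% and 0.274%, and that of Rrm2 is not in the table. Tyms matched 10 other genes over 330 to 361 bases. Of these, Reep3 had 216%, Map3k2 123% and Wdr59 29.3% as many reads as Tyms, counted over the whole gene. The matching transcripts of Reep3, Map3k2 and Wdr59 are annotated as retained introns. How many reads come from the matching bases was not tested.

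The make-up of the tissue differed between groups beside these genes. Of the 22745 genes tested, 1299 were called lower and 2858 higher in EY, and 252 lower and 790 higher in Y. After scaling 1971 were called lower in EY. All 8 differentiated epithelial markers fell in EY, with a median log2 fold change of -3.66, and 2 of them, Krt10 and Krt76, fell in Y, by 2.36 and 2.50 on the log2 scale. Their summed level was 138433, 72595, 111747, 116888 and 115409 TPM in N mice, 97263, 114345, 117251, 65108 and 100242 TPM in E mice, 79440.3, 43508 and 67256 TPM in Y mice, and 26861 to 39779.5 TPM with a median of 29379.6 TPM in EY. EY lay below all other mice. Of the 7 basal markers, Krt14 rose by 1.43 and Krt15 fell by 1.27 in EY, and none was called in Y or E. The basal sum was 14624, 12189.8, 9454, 9916 and 9261 TPM in N mice, 11874, 15475, 11481, 15427 and 8973 TPM in E mice, 31006, 17104 and 19638 TPM in Y mice, and 16016 to 32189 TPM with a median of 25089 TPM in EY. Y and EY lay above all N and E mice in this sum, in which Krt14 is the most abundant gene. The median log2 fold change of the 7 basal markers was 0.03 in EY and -0.10 in Y, with 5 and 3 of the 7 above 0, and -0.35 and -0.30 after scaling, when 2 basal markers, Krt15 and Col17a1, were called lower in EY. The part of these shifts in the replication values was not tested.

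By the same rule 12.6% of all genes tested were higher in EY and 3.47% in Y. Of 6 neutrophil markers, S100a8, S100a9 and Ly6g rose in EY, and S100a8 and S100a9 in Y by 5.44 and 5.89. Their sum, with S100a8 the most abundant gene in all mice, was 78.2, 17.6, 8.20, 11.3 and 11.8 TPM in N mice, 32.1, 85.7, 49.9, 5.80 and 39.9 TPM in E mice, 769, 961 and 543 TPM in Y mice, and 83.5 to 1034 TPM with a median of 635 TPM in EY. Y and EY were high in this sum except EY6, which lay below E2, and Ly6g was at 0 in all N, E and Y mice. The log2 fold change was above 0 in Y for 4 of the 6 markers, with Csf3r the lowest at -0.08. Retnlg had the highest value in EY, 5.49, without being called. Which cells made S100a8 and S100a9 cannot be told from these bulk values, so this sum is not a measure of neutrophils alone. The part of other cells in the replication values was not tested.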

How the data were processed

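The tongue epithelium of 19 mice was measured by paired-end poly-A RNA sequencing. The authors aligned reads with STAR 2.7.9 to GRCm39, sorted them with SAMtools 1.7, counted them per gene with HTSeq 0.13.5 and deposited TPM, and how counts became TPM is not stated. Whole read pairs were recovered from the steps between TPM values in 24680 of 24680 genes above 0 (within 0.01 of a whole number). They were used for the depth, for 1 alternative and for the read shares of partner genes and pseudogenes. Groups follow the sample labels, and no sequencing batch is given. Genes reaching 0.1 TPM in 3 or more mice (22745) went into 1 limma 3.58.1 model (R 4.3.3; lmFit, then eBayes with trend) of log2(TPM + 0.1) with a mean per group, and p-values were adjusted over all genes by Benjamini-Hochberg. The model was tested on simulated data, and the outcome is not given here. The 48 genes, the other lists and the rule for naming genes were chosen with earlier results of these data known. Values in every mouse are given for the gene with the highest mean TPM of each of the 10 roles, for the largest and smallest change in EY and for genes not called in EY. Other lists cover replication, nucleotide synthesis, E2F, mitosis, mitochondrial DNA replication, translesion polymerase and reference genes, and markers of epithelial, immune, connective tissue, vessel, muscle and red cells. Alternatives were pseudocounts of 1 and 0.01 TPM, other filters, quantile normalization, median-of-ratios scaling, the mouse number as a block, fits of the compared groups alone or with the 3 N mice that have Cre and rtTA, other thresholds, voom, and leaving out each mouse. Promoter windows came from RefSeq (GRCm38.p6), the windows to print being chosen after their words were seen. Transcripts were compared with BLAST 2.17.0 and exon overlap was read from GENCODE M21. Tables and figures used matplotlib 3.10.9, pandas 2.3.3 and numpy 2.4.6 under Python 3.11.15. Transgene expression and the other assays of the series were not analysed here. The symbols Dctd, Ctps1, Bub1 and Ms4a1 of the lists are not in the table.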

Additional observations from a re-analysis of the deposited data

Results flagged for a closer look

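A mouse far from the rest of its group, with a gap to its nearest neighbour that is large for the range of the group, was looked for in 162 groups of values and found in 10, where chance gives about 1 in 20. Among the replication genes, Mcm10 was low in N4 at 2.00 TPM (nearest 2.25 TPM) and Cdc45 low in E1 at 2.36 TPM (nearest 3.78 TPM). Pold3 was high in EY5 at 9.49 TPM (nearest 8.37 TPM). In E4, Tk1 was high at 44.2 TPM (nearest 34.2 TPM) and so was Chaf1a at 18.4 TPM (nearest 15.9 TPM). The summed differentiated epithelial markers were high in EY3 at 39779.5 TPM (nearest 29658 TPM), and the summed neutrophil markers were high in N1 at 78.2 TPM (nearest 17.6 TPM). The summed skeletal muscle markers were high in N2 at 221 TPM (nearest 54.7 TPM), in E5 at 114 TPM (nearest 33.2 TPM) and in EY3 at 1159 TPM (nearest 192 TPM).

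The mitosis gene Cdc20 differed from the sum of the separate transgene effects, with an interaction of -1.29 (SE 0.21, limma adjusted p = 0.00793), as it rose by 3.09 in EY, 2.25 in Y and 2.13 in E on the log2 scale. It was the only gene called among the 19 mitosis genes, where 0.176% of all genes tested were called. The interaction was below 0 in all 19, with a median of -0.72, against 0.08 for all genes tested. At an unadjusted p under 0.05 by limma there were 16 of the 19. Of all genes tested 13.5% lay under that limit, 6.04% with an interaction below 0. Cenpa had a lower value than Cdc20, -1.34, without being called.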

How the results depend on the processing

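Under 31 alternatives, 196 of 216 counts stayed within 1.5 times the reported one, and 1082 of 1116 values of the 12 genes given in every mouse kept direction and call, 11 became called, 10 lost the call and 13 changed sign. The 44 genes higher in EY than N ranged from 38 to 46, and 43 to 44 without any 1 mouse. The 10 genes of Y against N became 5 with a pseudocount of 1 TPM, 4 with median-of-ratios scaling, 4 with quantile normalization, 5 with only the 3 N mice with Cre and rtTA, 18 with no limit on the fold change, and 4 (without Y3) to 11 without any 1 mouse. The 18 of E against N became 11 with only the groups compared, 32 with no limit, and 14 to 30 (without E1). The 27 of EY against Y became 12 with median-of-ratios scaling, 17 with quantile normalization, 15 with only the groups compared, and 9 (without Y1) to 29. The 14 of EY against E became 9 with a pseudocount of 1 TPM, 4 with median-of-ratios scaling, 5 with quantile normalization, 33 with no limit, 9 by voom, and 8 (without E1) to 17. The 0 genes called higher in Y than E and the 0 called for the interaction stayed 0 in limma and voom. At an unadjusted p under 0.05 by limma there were 11 (all lower in Y) and 3 genes. The 1 gene called lower in Y than E became 0 to 2, and 0 without any 1 of 12 mice. Gins2 in EY, 0.02, turned to -0.35 (median-of-ratios), -0.40 (quantile), -0.13 (3 N mice), -0.15 (voom) and -0.073, -0.036, -0.030 and -0.053 without N1, N4, N5 or EY3. Its range was -0.073 to 0.13 without any 1 mouse. Rfc2 in Y, 0.17, turned to -0.027 (median-of-ratios) and -0.056 (quantile). Rnaseh2a in E, -0.03, turned to 0.055, 0.032 and 0.00050 without N3, N5 or E1, with a range of -0.0870 to 0.055 without any 1 mouse. The cause of these changes was not tested. The mouse numbers of the sample titles do not pair the groups, as the 24 same-number pairs correlated between -0.04 and 0.08. With the number as a block the counts were 44, 11, 16, 18 and 16 for EY, Y and E against N and EY against Y and E. The titles do not give litters, so pairing of littermates, which the study's methods describe, was not tested.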

Other observations

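Mitochondrial DNA replication is run by its own enzymes, and 2 of 13 of their genes rose in EY, Mgme1, a mitochondrial exonuclease, by 1.77 and Primpol by 1.03, where 12.6% of all genes tested were higher. After median-of-ratios scaling Mgme1 alone was called. The lowest value was that of Polg2 at -0.90, not called. Mgme1 was also higher in EY than in E, by 1.62. Of 9 translesion and repair polymerase genes, Polq rose in EY by 2.33, in Y by 1.28 and in E by 1.47, and the median of the 9 was 0.19 in EY, and -0.17 after scaling. Of 8 reference genes, Ppia rose in EY by 1.13 and was not called after scaling (0.75), and their median in EY was 0.43, or 0.06 after median-of-ratios scaling.

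Sums of markers of other cells are given as group means. The 6 T cell genes summed to 2.41 TPM in the N, 3.81 in the E, 2.85 in the Y and 7.80 in the EY mice, and Cd3d rose in EY by 2.75. In Y1, Y2 and Y3 the T cell sum was 1.30, 2.09 and 5.16 TPM. The 3 B cell genes in the table summed to 1.51, 0.995, 0.413 and 1.45 TPM in that order of groups. The 7 macrophage and dendritic cell genes summed to 257, 248, 64.3 and 196 TPM, with 710 TPM in N1 and 91.1 to 249 TPM in the other N mice, and in EY the median log2 fold change of the 7 was 0.38, or 0.016 after scaling, with 5 above 0 on the deposited scale, while Cd207, a Langerhans cell gene, fell by 1.86. The 3 pan-leukocyte genes summed to 10.5, 12.2, 9.31 and 18.4 TPM, with a median log2 fold change of 0.73 in EY, or 0.40 after scaling. N1 had 26.1 TPM in this sum and the other N mice 2.34 to 9.87 TPM. The 6 fibroblast genes summed to 144, 80.6, 34.1 and 86.8 TPM, with 61.5 to 293 TPM in single N mice, and in EY the median log2 fold change of the 6 was 0.39, or 0.018 after scaling, with 5 above 0 on the deposited scale, while Dcn fell by 2.36. The 4 endothelial genes summed to 0.448, 0.377, 0.190 and 1.02 TPM. EY3 had 3.17 TPM, the other EY mice 0.240 to 0.956 TPM, and E5 0.894 TPM. The 6 skeletal muscle genes summed to 72.4, 41.8, 46.6 and 291 TPM, with 1159 TPM in EY3, 221 TPM in N2, 114 TPM in E5 and 122 TPM in Y2. The 4 erythroid genes summed to 123, 228, 207 and 227 TPM, with 364 TPM in N5 and 40.4 to 112 TPM in the other N mice. They had 449 TPM in Y1, 631 TPM in EY3 and between 40.1 and 459 TPM in the E mice.

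The reads of the pseudogene Pcna-ps2, as a percentage of those of Pcna in the same mouse, fell into 3 separate levels. They were 0.955 in N3, 0.681 in N5, 1.03 in E3 and 1.10 in E4. They were 22.04 in E5, 23.1 in EY1, 22.3 in EY4 and 21.5 in EY5. The other 11 mice had between 9.11 and 12.8.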
